A study of Sus scrofa with 24 samples.

Results

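The genes described here encode proteins that take part in cutting and joining messenger RNA in the nucleus, and other RNA-binding proteins. All are called splicing genes below, and were measured in the back muscle of pigs with much or little fat inside the muscle. They are the genes whose symbol starts with HNRNP, SRSF, SF3A, SF3B, SNRP, PRPF, RBM followed by a digit, or PABP. The rule uses names alone and no measured value. It finds 80 genes of the 12017 in the table, with 236 of its 22154 listed transcripts. They are 26 RBM, 16 HNRNP, 11 PRPF, 10 SRSF, 8 SNRP, 5 SF3B and 3 SF3A genes, and PABPN1 is the only gene of the last kind.

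The high IMF group (intramuscular fat, IMF) held 12 animals and the low IMF group held 12 animals. All were first-generation offspring of Duroc boars and Luchuan sows, reared together on 1 diet and slaughtered at 210 ± 6 days. Longissimus dorsi, a muscle along the spine, was sampled after slaughter where the chest meets the loin, and polyadenylated RNA was sequenced from each animal. The labels give the fat class alone, and the relation of a gene to fat content, sex or litter was not tested. Values are FPKM, that is, fragments scaled to transcript length and library size, and a gene's level is the sum over its listed transcripts. The deposited table states no sequencing depth. Animal numbers follow accession order within a fat class.

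Splicing is carried out by small nuclear ribonucleoproteins, called U1, U2, U4, U5 and U6 after their RNA, which assemble on each intron. SNRP proteins are subunits of these particles, SF3A and SF3B hold U2 at the branch site, and PRPF proteins build and activate the assembled machine. SR proteins (SRSF) generally promote the use of nearby exons, hnRNP proteins often oppose it, and RBM proteins are a mixed group with RNA recognition motifs. Many of these genes are themselves spliced in several ways, and in muscle the choice of exons sets which forms of titin, troponin and tropomyosin are made.

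Summed over all listed transcripts, FPKM per library was 351119 to 415572. The 10 most abundant genes held 26.8 ± 2.54% of FPKM in high IMF and 29.3 ± 3.79% in low IMF (SD, n = 12 each). That share was low in high IMF animal 7, at 20.2%, and also in animal 10 of the low IMF group, at 18.5%. Actin ACTA1 ranged over 1012 to 27209 FPKM in high IMF and 8975 to 34774 FPKM in low IMF, so the labelled tissue was present in every library; myoglobin (MB), another muscle marker, was at or below 2.35 FPKM throughout and listed at 0 in 2 animals of each group. Adipocyte markers moved with the groups: all 7 measured had the higher mean in high IMF, and their sum was 64.3 to 206 FPKM in high IMF against 31.1 to 147 FPKM in low IMF. Of 7 muscle fibre markers 2 had the higher mean in high IMF, and their sum was 16410 to 45903 FPKM in high IMF and 19777 to 54422 FPKM in low IMF. The mean was higher in high IMF for 3 of 4 endothelial, 1 of 3 fibroblast and 1 of 2 measured macrophage markers, and the erythrocyte marker HBB averaged 74.9 ± 55.6 FPKM in high IMF and 40.1 ± 23.2 FPKM in low IMF. The part of these mixtures in any result below was not tested, and in such whole-tissue RNA fewer cells of a type and less RNA per cell cannot be told apart.

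The levels of the splicing genes gave no call between the fat classes. Of the 79 members with a mean of at least 0.5 FPKM, 0 were called higher and 0 lower in high IMF by limma at an adjusted p of 0.05. Over all 11757 genes tested, 0.051% were called, 0.0425% higher and 0.00851% lower. At an unadjusted p of 0.05, 5 members were above the threshold in the direction of high IMF and 0 in the direction of low IMF, against 6.79% and 0.893% of all genes. Those 5 were RBM15, SRSF10, PABPN1, RBM38 and SNRPN, of which RBM15 is named because of its value. The log2 fold change of FPKM + 1 was positive for 58 of 79 members with a median of 0.081, and positive for 73.4% of all genes with a median of 0.077. After scaling by the trimmed mean of M values (TMM), which equalises the bulk of genes between libraries, 33 of 79 were positive and the median was -0.013, while 49.9% of all genes were positive. The sign of 25 of 79 members changed with this scaling. Under TMM 0 members were called, against 0.0512% of all genes (0.0341% higher and 0.0171% lower), and 2 members higher and 3 lower had an unadjusted p below 0.05, against 2.82% and 2.28% of all genes. The 2 were RBM15 and SRSF10, and the 3 were SRSF1, HNRNPH3 and SRSF5.

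**Figure D1:**
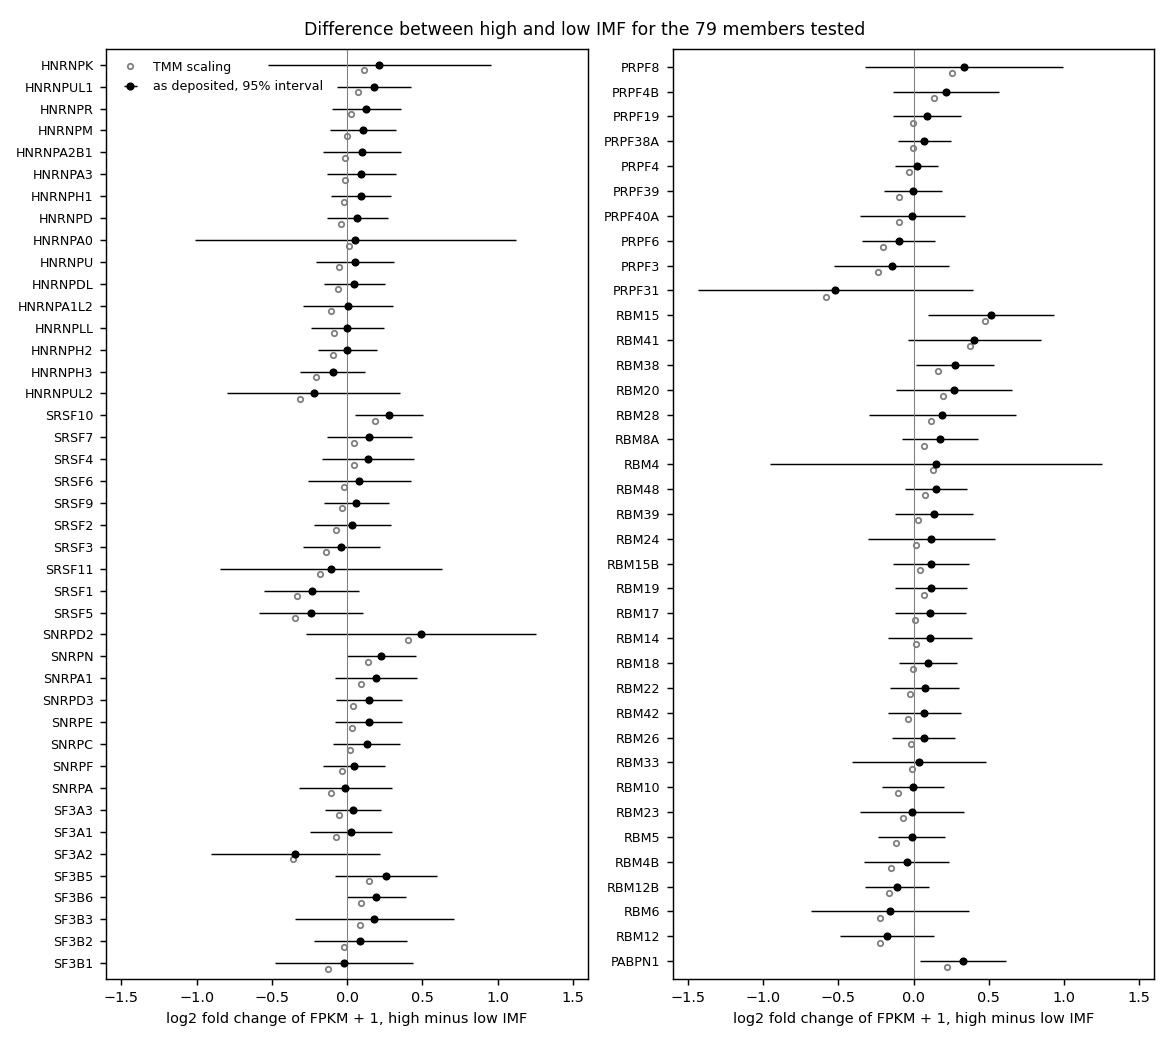
Log2 fold change of FPKM + 1, high minus low IMF, for the 79 members tested, grouped by family and sorted within it. Filled points are values as deposited with 95% confidence intervals from limma, open points are the same values after TMM scaling, and most intervals cross 0.

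How large a difference of log2(FPKM + 1) could have gone unseen is given by the 95% confidence intervals. Their half-width had a median of 0.26 and ran from 0.14 to 1.10. The whole interval lay within 0.5 of zero for 55 of 79 members and within 1 for 75. For members at low FPKM this scale understates the fold difference of FPKM itself, as for RBM12 at 1.08 FPKM with an interval of -0.49 to 0.14. Members of high level were measured most tightly. Among the 16 members at or above 20 FPKM the median coefficient of variation over the 24 animals was 20.02%, against 23.1% for other genes of that level. It was 24.2% for the 36 members at 5 to 20 FPKM and 39.6% for the 24 members at 1 to 5 FPKM, where other genes had 27.1% and 33.2%. The remaining 4 members, PRPF40B, RBM12B, RBM15 and SF3A2, were below 1 FPKM, and PRPF40B at 0.489 FPKM was not among the 79 tested.

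The signal was unevenly divided among the genes. HNRNPA2B1 alone held 16.6% of the members' FPKM, the 6 most abundant members held 45.5%, and the 16 hnRNP genes held 45.2%. The members together summed to 1434 ± 153 FPKM in high IMF and 1330 ± 193 FPKM in low IMF, which is 0.373% and 0.349% of all FPKM in those groups. The median deviation of the members from their gene means was highest in the 2 libraries with a small top-10 share, at 0.24 in high IMF animal 7 and 0.45 in animal 10 of the low IMF group. Over all genes it was 0.22 and 0.33 in these libraries.

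**Figure D2:**
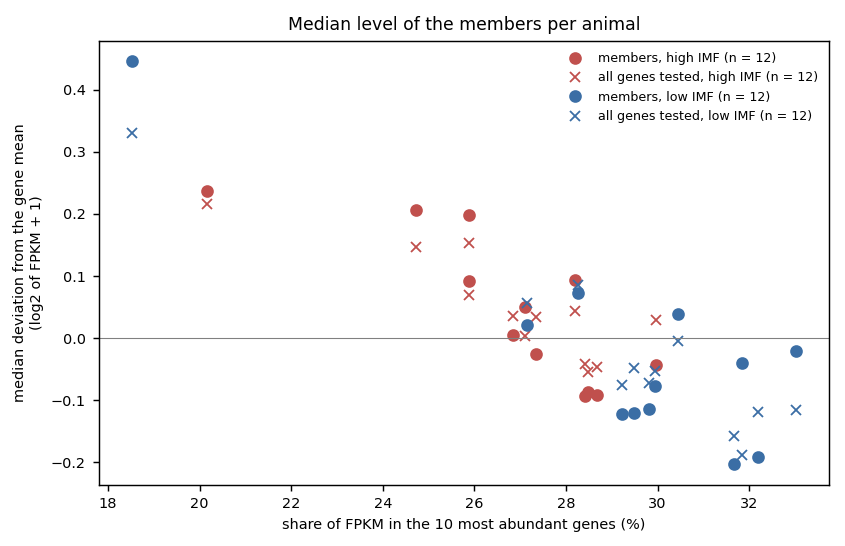
Median deviation of log2(FPKM + 1) from the gene mean, per animal, against the percent of FPKM in the 10 most abundant genes. Circles are the 79 members tested and crosses are all genes tested, with high IMF in red and low IMF in blue; high IMF animal 7 at 20.2% and animal 10 of the low IMF group at 18.5% have the highest member medians of their groups.

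Subunits of the small nuclear ribonucleoproteins summed to 147 ± 26.1 FPKM in high IMF and 130 ± 25.9 FPKM in low IMF. Of 8 tested, 7 had a positive fold change (6 after TMM scaling), with a median of 0.14, and 1 had an unadjusted p below 0.05. SNRPC, which helps U1 recognise the start of an intron, was the most abundant, at 30.0, 46.8 and 58.2 FPKM (lowest, median and highest) in high IMF and 28.3, 41.4 and 58.4 FPKM in low IMF. These ranges nearly coincide, and the log2 fold change was 0.13 (SE 0.11), or 0.020 after TMM scaling. SNRPN encodes a form of the SmB ring protein known in mammals for imprinting and for expression in brain. It lies on an unplaced scaffold and had 2.62, 3.96 and 5.35 FPKM in high IMF and 2.28, 3.47 and 4.23 FPKM in low IMF. Its ranges overlap, with 8 of 12 high IMF animals above the low IMF median, and the log2 fold change was 0.23 (SE 0.11, unadjusted p = 0.0487, adjusted p = 0.644, limma). After TMM scaling it was 0.14, with an unadjusted p = 0.206. SNRPA1, a U2 protein, had a log2 fold change of 0.19 (0.091 after TMM scaling) with 10 of 12 high IMF animals above the low IMF median.

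SNRPD2, a protein of the ring on which each particle is built, was the most variable subunit. It was listed at 2.69, 8.84 and 28.4 FPKM in high IMF and at 1.51, 6.18 and 16.4 FPKM in low IMF, with a coefficient of variation of 75.9%. The spread within each group exceeds the difference between them, which was 0.49 on the log2 scale (SE 0.37, limma adjusted p of 0.76). Its reference transcript alone gave the opposite sign, as described with the transcripts.

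Of the U2 branch-site factors, 4 of 5 SF3B and 2 of 3 SF3A genes had a positive fold change (3 and 0 after TMM scaling). The medians were 0.18 and 0.025, and 0 genes of either family had an unadjusted p below 0.05 in limma. SF3A2 had a log2 fold change of -0.34 with an interval of -0.91 to 0.22, or -0.36 after TMM scaling. For SF3B3 it was 0.18 with an interval of -0.35 to 0.71, or 0.089 after TMM scaling. SF3B5, a small subunit of the SF3B complex at chr1:21231286-21232011, had 27.9, 49.0 and 68.6 FPKM in high IMF and 21.8, 40.7 and 67.3 FPKM in low IMF. The groups overlap over most of their range, with a log2 fold change of 0.26 (SE 0.16, adjusted p = 0.717, limma), or 0.15 after TMM scaling. SF3B6, which contacts the branch-point region, had 6.52, 7.84 and 10.2 FPKM in high IMF and 5.62, 6.31 and 10.3 FPKM in low IMF. Each of the 12 high IMF values exceeded the median of low IMF, though 3 low IMF values exceeded the median of high IMF, and the log2 fold change was 0.19 (SE 0.10, unadjusted p = 0.0521). After TMM scaling it was 0.095, with an unadjusted p = 0.262. SF3B1, the scaffold of the complex, had a log2 fold change of -0.021 with an interval of -0.48 to 0.44, and SF3A1 one of 0.025 with an interval of -0.25 to 0.30; after TMM scaling these were -0.12 and -0.075.

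The PRPF genes were evenly divided, with 5 positive and 5 negative fold changes among 10 tested (2 positive after TMM scaling) and a median of 0.0090. PRPF6, a bridge between the U5 and the U4/U6 particles, was the most abundant, at 9.74, 14.2 and 23.4 FPKM in high IMF and 11.05, 16.3 and 21.2 FPKM in low IMF. Its log2 fold change was -0.098 (SE 0.12), or -0.20 after TMM scaling. PRPF31, a U4/U6 protein that joins the same assembly, was listed at 0 in 3 high IMF animals and 1 low IMF animal. It had medians of 1.35 FPKM in high IMF and 4.30 FPKM in low IMF, with highest values of 8.13 and 5.67 FPKM. A total of 8 of its 24 libraries lay below 0.1 of the median over all animals, and the log2 fold change was -0.52 with an interval of -1.43 to 0.39. PRPF3 and PRPF39 had log2 fold changes of -0.15 and -0.0041, or -0.24 and -0.097 after TMM scaling.

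PRPF8, the core of the catalytic centre, shows how a single library can stand apart, and is named here after its values were seen. It was at 0.0215 FPKM in low IMF animal 3 and at 10.1 to 19.7 FPKM in all high IMF animals. Across the members, 13 genes had at least 1 library below 0.1 of their own median, and 10 were listed at 0 in at least 1 library. In a table of assembled transcripts a value of 0 can be a failed estimate, so group medians are given for PRPF31, RBM12, RBM15 and RBM41.

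The SR proteins, which bind enhancer sequences in exons, summed to 122.9 ± 13.2 FPKM in high IMF and 123.5 ± 27.1 FPKM in low IMF. Of 10 tested, 6 had a positive fold change (3 after TMM scaling), with a median of 0.048, and 1 had an unadjusted p below 0.05. That was SRSF10, an SR protein that can repress splicing and that, in mouse cells, is known to act on exon choice during fat cell differentiation. Its span also reaches the RefSeq gene PNRC2. SRSF10 had 5.73, 7.05 and 9.01 FPKM in high IMF and 4.22, 5.49 and 8.497 FPKM in low IMF. The 12 high IMF values all exceeded the median of low IMF, while 3 low IMF values exceeded the median of high IMF. The log2 fold change was 0.28 (SE 0.11, unadjusted p = 0.0174) and the adjusted p was 0.544 by limma, so the difference did not pass. After TMM scaling it was 0.18, with an unadjusted p = 0.0319.

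SRSF1 and SRSF5, the classical enhancer-binding SR proteins, had negative fold changes that did not pass the test, and that of SRSF1 was positive, at 0.24, with its reference transcript alone. SRSF1 had 4.14, 6.93 and 11.9 FPKM in high IMF and 5.33, 8.87 and 14.3 FPKM in low IMF, with 4 of 12 high IMF animals above the low IMF median. Its log2 fold change was -0.24 (SE 0.15, adjusted p = 0.724, limma). SRSF5 had 6.61, 15.5 and 24.1 FPKM in high IMF and 11.8, 17.9 and 32.1 FPKM in low IMF, with 3 of 12 high IMF animals above the low IMF median, and a log2 fold change of -0.24 (SE 0.17, adjusted p = 0.739, limma). After TMM scaling SRSF1 had -0.33, with the smallest unadjusted p of all members, 0.0159 (adjusted p = 0.754, limma), and SRSF5 had -0.34, with an unadjusted p of 0.0437. SRSF5 is also the member with most listed transcripts, 11, of which 10 were added by the assembly, and 1 of them reaches the RefSeq gene SLC10A1. SRSF2, the most abundant SR gene, had medians of 42.0 FPKM in high IMF and 41.7 FPKM in low IMF.

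The hnRNP genes, which coat nascent transcripts, gave 14 positive fold changes of 16 as deposited and 4 of 16 after TMM scaling, with medians of 0.061 and -0.032, so that its direction depends on the scaling. HNRNPA2B1, known for packaging and sorting of RNA, was the most abundant member, at 161, 223 and 323 FPKM in high IMF and 169, 214 and 336 FPKM in low IMF. The 2 distributions lie over each other, and the log2 fold change was 0.10 with an interval of -0.16 to 0.36. The gene listed as HNRNPA1L2 (chr5:19485018-19491476, Sscrofa11.1) coincides with the gene that RefSeq calls HNRNPA1 on the same assembly. It had 41.6, 69.5 and 103 FPKM in high IMF and 46.9, 73.8 and 103 FPKM in low IMF, and its log2 fold change was 0.0046.

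HNRNPH1, which binds runs of G, had the lowest coefficient of variation of all members, 16.1%. It had 53.7, 69.0 and 94.3 FPKM in high IMF and 52.2, 69.7 and 79.7 FPKM in low IMF. The log2 fold changes of HNRNPM, HNRNPU, HNRNPUL1 and HNRNPH3 were 0.11, 0.051, 0.18 and -0.096 (-0.0039, -0.053, 0.070 and -0.20 after TMM scaling), each with an interval that includes 0. HNRNPUL2 fell into a low and a high set of animals within both groups. It was at 0.347 to 1.06 FPKM in 5 high IMF animals and at 0.0623 and 0.5 FPKM in low IMF animals 9 and 10, and at least 2.26 FPKM in all others.

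**Figure D3:**
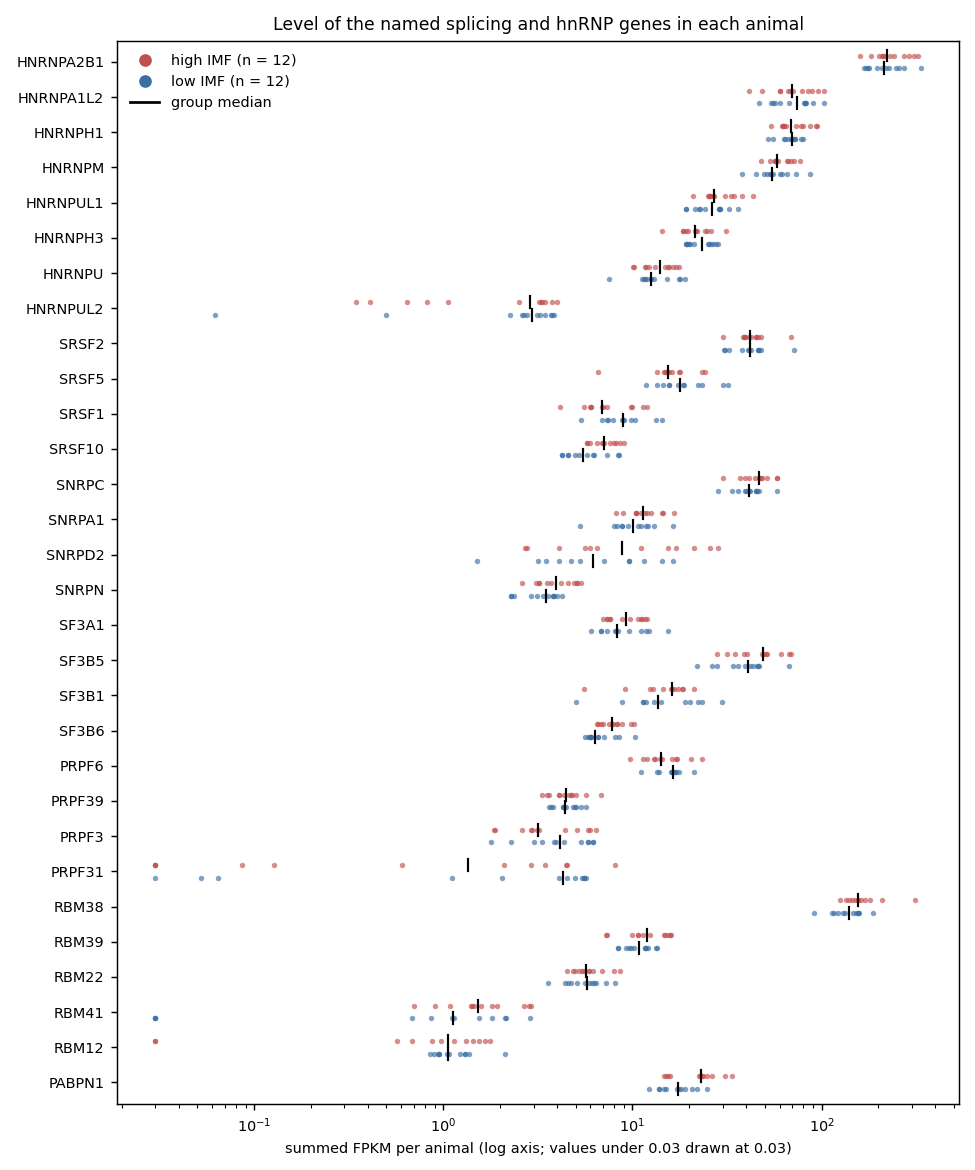
Summed FPKM of the 30 named members in each animal, on a log axis, with 12 high IMF animals above (red) and 12 low IMF animals below (blue) on each line and the group median as a bar. The groups overlap for every gene, and PRPF31, RBM12 and RBM41 reach the foot of the axis, 0.03 FPKM, where lower values are drawn.

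Among the RBM genes, 19 of 26 had a positive fold change (14 after TMM scaling), with a median of 0.11, and 2 had an unadjusted p below 0.05. RBM38, known for binding the 3' regions of messages of the p53 pathway and for a role in muscle differentiation in mouse, was the second most abundant member and has a single listed transcript. It had 126, 156 and 311 FPKM in high IMF and 91.8, 139 and 187 FPKM in low IMF, with 10 of 12 high IMF animals above the low IMF median. The highest value belongs to high IMF animal 10, and the groups otherwise overlap. The log2 fold change was 0.27 (SE 0.13, unadjusted p = 0.0398) and the adjusted p was 0.627 by limma. Without that animal it was 0.19, and after TMM scaling it was 0.16, with an unadjusted p = 0.175.

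RBM15, which guides the RNA methylation machinery, had 1.18 FPKM as its median in high IMF and 0.407 FPKM in low IMF, and was listed at 0 in 1 high IMF animal and 4 low IMF animals. The log2 fold change was 0.52 (SE 0.20, unadjusted p = 0.0172, adjusted p = 0.544, limma). The span of RBM15 also reaches the RefSeq gene SLC16A4. RBM41 had medians of 1.52 FPKM in high IMF and 1.13 FPKM in low IMF, was listed at 0 in 3 low IMF animals, and had a log2 fold change of 0.41 (SE 0.22, adjusted p = 0.670, limma). RBM12 had a median of 1.06 FPKM in both groups and was listed at 0 in high IMF animals 1 and 3. Its log2 fold change was -0.18, or -0.22 after TMM scaling. RBM39, a coactivator that also takes part in splice site choice, had medians of 11.9 FPKM in high IMF and 10.9 FPKM in low IMF, and RBM22, a component of the activated spliceosome, had 5.71 and 5.74 FPKM in those groups.

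Muscle-enriched RBM genes were looked at after their values were seen. RBM20, the regulator of titin splicing, had 0.723, 3.25 and 4.35 FPKM in high IMF and 0.859, 2.30 and 3.61 FPKM in low IMF, with a log2 fold change of 0.27 (SE 0.19). RBM24, which promotes inclusion of muscle exons in mouse, had 5.98, 10.8 and 19.9 FPKM in high IMF and 5.70, 11.3 and 17.2 FPKM in low IMF. Titin (TTN) itself was listed at 0.174, 2.74 and 8.91 FPKM in high IMF and 1.75, 5.94 and 19.4 FPKM in low IMF, and its exon choice is not analysed here.

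PABPN1 binds poly(A) tails in the nucleus, sets their length, and is the gene of oculopharyngeal muscular dystrophy in humans. It had 14.7, 23.1 and 33.8 FPKM in high IMF and 12.2, 17.4 and 24.8 FPKM in low IMF. Of the high IMF animals 8 of 12 exceeded the median of low IMF, and 1 low IMF animal exceeded the high IMF median. The log2 fold change was 0.33 (SE 0.14, unadjusted p = 0.0261) and the adjusted p was 0.595 by limma. After TMM scaling it was 0.22, with an unadjusted p = 0.0683. The table puts 5 transcripts under this symbol (chr7:75750330-75770723, Sscrofa11.1), of which 2 reach the RefSeq gene LOC100154044 at chr7:75765603-75770743. Without those 2, a choice made after seeing the data, PABPN1 had 18.2 ± 6.14 FPKM in high IMF and 13.4 ± 3.03 FPKM in low IMF, and this gave a log2 fold change of 0.38 (SE 0.16, adjusted p = 0.593, limma).

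Splicing genes were listed with many transcripts. Of the 80 members, 52 had at least 2 listed transcripts and 16 had at least 5, which is 65% with at least 2 against 44.5% of the other 9426 genes with a symbol. At 1 to 5 FPKM the shares were 37.5% of members and 37.7% of other genes. They were 80.6% and 67.7% at 5 to 20 FPKM, and 87.5% and 72.0% at 20 FPKM or more. These shares are a description, and no test was made of them. The assembly added 115 of the 236 member transcripts, and 48 members have at least 1 of them. Added transcripts and those at other loci held 49.96 ± 3.26% of the members' FPKM in high IMF and 51.2 ± 2.41% in low IMF. For all transcripts in the table the share was 41.3 ± 2.30% in high IMF and 43.4 ± 2.50% in low IMF. By family it was highest for HNRNP genes, at 77.0% in high IMF and 76.0% in low IMF. It was 22.0% and 23.8% for RBM genes, 12.2% and 8.87% for SNRP genes, and 0 for SF3A genes.

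How reads were divided between overlapping transcripts was decided by the authors' assembly, so shares are less certain than sums, and the same holds for reads shared between paralogs. No source used here states whether counting used strand, and exon positions are not analysed here. The span of 38 members overlaps more than 1 RefSeq gene, and for those a neighbour's reads cannot be told apart.

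In some genes 1 transcript led in every animal. Of the 52 genes with at least 2 transcripts, 11 were led by the same transcript in all 24 libraries, and in 28 the leading transcript had a mean share above 50%. HNRNPA2B1 has 7 transcripts, and the added isoform MSTRG.6907.7, with 11 exons and 1708 bases, held 72.0% to 82.3% of its FPKM over the 24 animals. The mean was 77.4 ± 3.10% in high IMF and 78.2 ± 2.33% in low IMF. SNRPE and SNRPD3, ring proteins like SNRPD2, were led at 94.4 ± 1.58% and 88.9 ± 4.22% over all animals, and HNRNPDL kept a leader at 43.0 ± 4.29% among 7 transcripts. HNRNPUL1, SNRPC and SNRPA1 also kept the same leader in all 24 libraries.

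**Figure D4:**
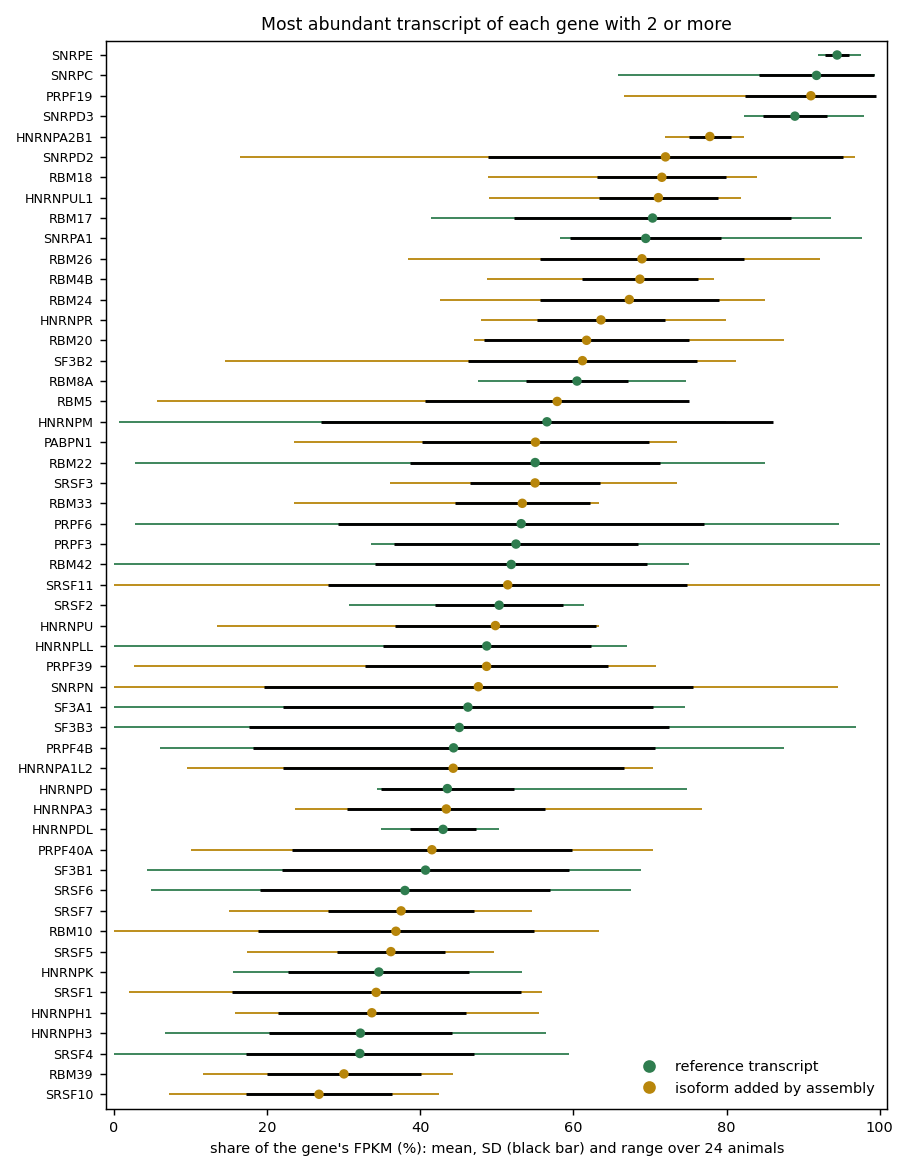
Share of the gene's FPKM held by its most abundant transcript, for the 52 members with 2 or more listed transcripts. Points are means over 24 animals, black bars the SD and coloured lines the range, in green for reference transcripts (23 genes) and gold for isoforms added by the assembly (29 genes); SNRPE is narrow and HNRNPM wide.

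In most genes the leader was not the same in every animal, though how often it changed differed widely between genes. For 41 genes more than 1 transcript led, and for 19 at least 3 did. Among those 41, the transcript of highest mean share led in as few as 9 libraries, in HNRNPD. It led in as many as 23 libraries in SRSF5, RBM18, SRSF3, HNRNPLL and RBM17. The SD of the leading share had a median of 13.2 points. In some genes the shares fell into separate sets of animals. A gap of at least 15 points between neighbouring animals, with at least 3 on either side, was found in 19 of 180 transcripts with a mean share of at least 5%, in 13 genes. A gene with 2 transcripts, such as SRSF11 or RBM17, counts with both. In SRSF11 the gap sets apart high IMF animals 3 and 10 and low IMF animal 5. Their SRSF11 sums were 0.277, 0.0403 and 0.746 FPKM. Leaders and gaps were not counted for other genes, so these counts cannot be called particular to the members. The sets of animals are described and were not tested, and they hold animals of both fat classes unless stated.

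SRSF1 divided most widely among genes with at least 6 animals on either side. Its reference transcript ENSSSCT00000019188, with 5 exons and 2682 bases, held 53.6% to 79.8% of SRSF1 FPKM in 6 animals, namely high IMF animals 2, 3, 4 and 12 and low IMF animals 4 and 5. It held 5.03% to 12.4% in the other 18. In the same 6 animals the added isoform MSTRG.2627.1, with 3 exons and 6064 bases and a 3' end farther downstream than that of the reference, held 1.96% to 6.41%, against 33.97% to 55.9% in the rest. The summed level of SRSF1 in those 6 animals was 4.14 to 7.35 FPKM, in the lower part of its range.

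HNRNPM, a repressor and enhancer of exons with 7 transcripts, showed the same kind of division. ENSSSCT00000053367, with 17 exons, held 63.4% to 79.9% in 18 animals. In high IMF animals 6 and 11 and low IMF animals 3, 6, 8 and 12 it held 0.657% to 29.4%, and other HNRNPM transcripts took its place. The summed level of HNRNPM stayed within 38.1 to 86.6 FPKM over all animals. In SNRPN, MSTRG.15611.9 held 81.8% to 93.2% in low IMF animals 1, 8, 9 and 11 and at most 51.3% in the other 20 animals. In SF3A1, ENSSSCT00000064184 held 46.4% to 63.1% in high IMF animals 3, 4 and 8 and at most 31.2% in the rest.

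**Figure D5:**
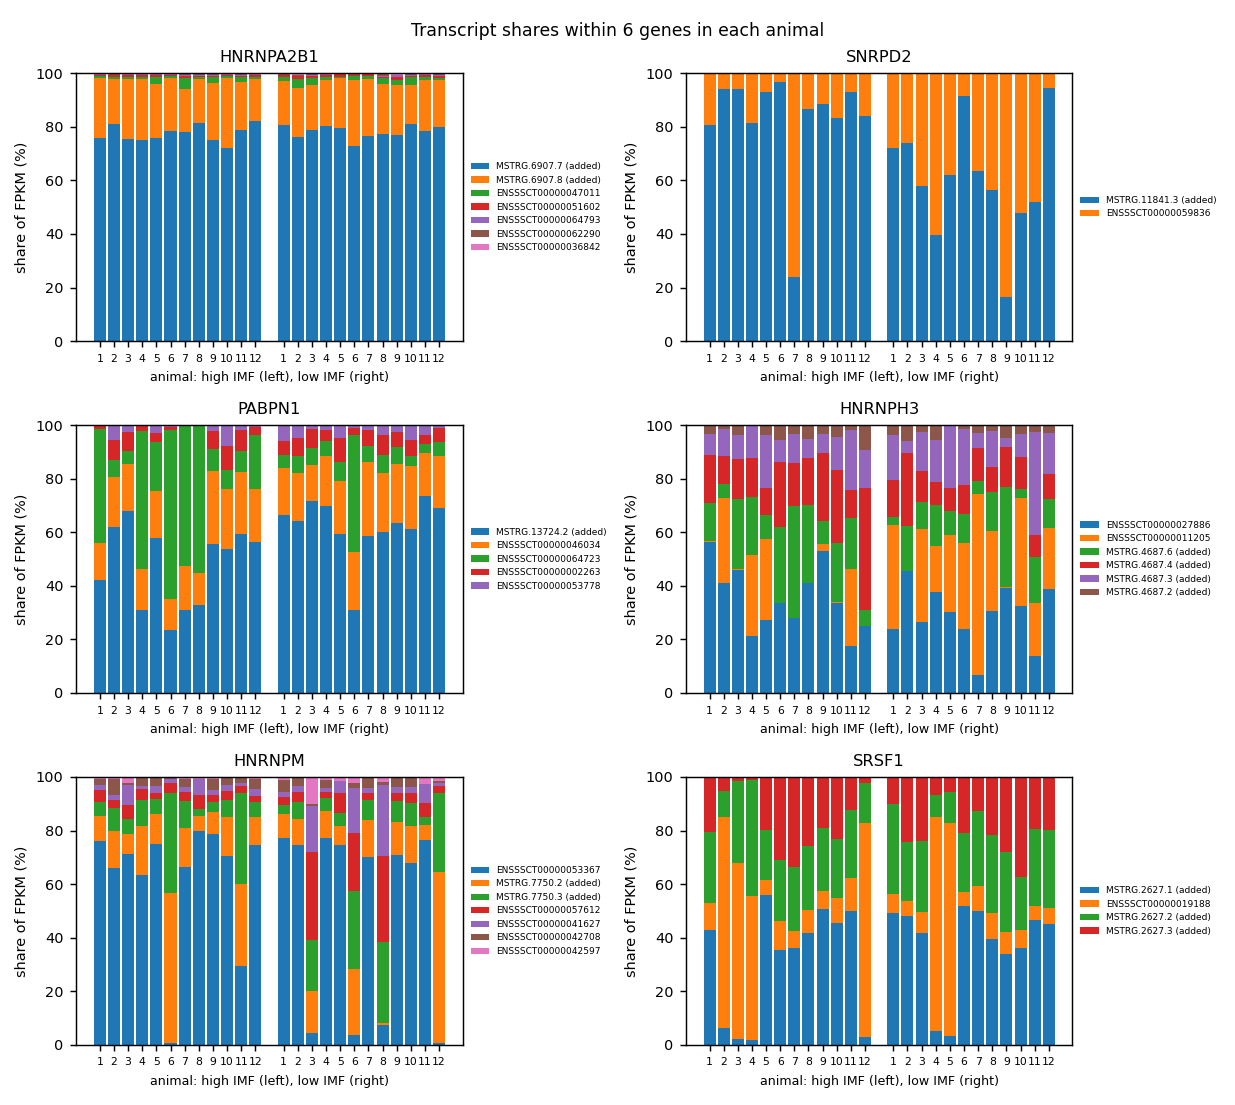
Percent of each gene's FPKM held by each listed transcript, stacked per animal, with 12 high IMF animals at the left and 12 low IMF animals at the right of each panel. HNRNPA2B1 looks alike in all 24 animals, while SRSF1, HNRNPM and PABPN1 fall into separate sets.

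The balance of transcripts within a gene gave no call between the fat classes. Shares were tested for 204 member transcripts as the log2 ratio of a transcript to the other transcripts of its gene, and 0 were called, as for all 14865 transcripts tested (0%). The difference was positive for 102 of 204 members' shares and for 48.3% of all. At an unadjusted p of 0.05, 3 shares were higher and 6 lower in high IMF, against 2.27% and 2.54% of all shares. These 9 belong to PABPN1, SNRPD2, HNRNPH3 and SRSF10, and shares of 1 gene are bound to each other. The adjusted p of all 9 was 0.953 by limma.

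PABPN1 had the smallest p. The reference transcript ENSSSCT00000064723, with 7 exons and 1707 bases, held 4.83%, 19.2% and 63.0% of its FPKM (lowest, median and highest) in high IMF and 3.31%, 6.10% and 43.6% in low IMF. It was at 42.7% or more in high IMF animals 1, 4, 6, 7 and 8 and in low IMF animal 6, and at 20.1% or less in the other 18. The difference of the log2 ratio was 1.63 (SE 0.54, unadjusted p = 0.00590), and the mean share was 28.1 ± 22.8% in high IMF and 8.74 ± 11.05% in low IMF. Without the transcripts over LOC100154044 the mean share was 33.5 ± 25.8% in high IMF and 11.4 ± 14.3% in low IMF. The added isoform MSTRG.13724.2, with 6 exons and 2835 bases and the same end, moved against it, with 47.8 ± 14.8% in high IMF and 62.3 ± 11.07% in low IMF (difference -0.84, SE 0.31).

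In FPKM the reference transcript of PABPN1 was at 0.928, 4.51 and 18.4 in high IMF and 0.669, 0.958 and 7.84 in low IMF, a log2 fold change of 1.37 (SE 0.41, unadjusted p = 0.00286, adjusted p = 0.463, limma). The added isoform was nearly level between groups, at 10.2 ± 3.17 FPKM in high IMF and 10.9 ± 3.43 FPKM in low IMF. In the authors' deposited table the same reference transcript has the lowest p among member transcripts, 0.00749, with a fold of 0.395 given as low over high IMF and q-values of 0.821, 0.615 and 0.323.

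SNRPD2 has 2 listed transcripts, whose shares mirror each other. The added isoform MSTRG.11841.3, with 4 exons and 638 bases, held 23.8%, 87.5% and 96.8% in high IMF and 16.5%, 60.1% and 94.3% in low IMF. In 11 of 12 high IMF animals the share was above the low IMF median, and the exception was animal 7. The difference of the log2 ratio was 1.57 (SE 0.53, unadjusted p = 0.00703). The reference transcript ENSSSCT00000059836, with 3 exons and 1268 bases, was at 0.159, 1.002 and 3.27 FPKM in high IMF and 0.799, 2.11 and 5.96 FPKM in low IMF, a log2 fold change of -0.51 against the 0.49 of the summed gene.

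HNRNPH3, a relative of HNRNPH1, had 6 transcripts, and its span also reaches the RefSeq genes RUFY2 and PBLD. ENSSSCT00000011205 held 0%, 0.380% and 32.1% in high IMF and 0.142%, 29.5% and 67.5% in low IMF, and was listed at 0 in 3 high IMF animals. It was at least 17.2% in 4 high IMF animals and in 10 low IMF animals. The difference of the log2 ratio was -2.15 (SE 0.75, unadjusted p = 0.00860), and in FPKM the log2 fold change was -1.51 (unadjusted p = 0.00714, adjusted p = 0.558, limma). The added isoform MSTRG.4687.4, whose 3' end lies farther downstream than that of ENSSSCT00000011205, held 19.5 ± 10.1% in high IMF and 12.2 ± 5.22% in low IMF (difference 0.67, SE 0.27). The summed level of HNRNPH3 was 14.4, 21.5 and 31.3 FPKM in high IMF and 19.2, 23.2 and 28.2 FPKM in low IMF.

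SRSF10 was led by 5 different transcripts in different animals. Its added isoform MSTRG.12413.5 had 2.20 ± 0.925 FPKM in high IMF and 1.44 ± 0.843 FPKM in low IMF, a log2 fold change of 0.40. The share of the SRSF10 reference transcript ENSSSCT00000061068 was lower in high IMF, with a difference of -0.38 (SE 0.18, unadjusted p = 0.0406, limma). The share differences of SRSF5, HNRNPU, HNRNPM and RBM22 had unadjusted p above 0.05. For RBM22 the transcript ENSSSCT00000022932 held 60.8 ± 13.03% in high IMF and 49.2 ± 17.7% in low IMF (difference 0.65, SE 0.34), and the lowest share, 2.77%, belongs to low IMF animal 6. For HNRNPU the share of MSTRG.1518.1 was 28.8 ± 4.58% in high IMF and 33.6 ± 5.49% in low IMF (difference -0.30, SE 0.15).

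As single transcripts, 230 members' transcripts were tested in FPKM and 0 were called, against 0.0187% of all 21405 transcripts. At an unadjusted p of 0.05, 5 were higher and 2 lower in high IMF, against 5.25% and 1.09% of all transcripts. The fold change was positive for 147 of 230 and for 66.1% of all transcripts. The 2 lower ones are the reference transcripts of HNRNPH3 and SNRPD2 described above. The authors' deposited table gives p below 0.05 for 10 of the 236, or 4.24%, against 6.39% of all its transcripts; high IMF was the higher group for 4 of the 10.

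The animals' identifiers fall into an earlier-numbered and a later-numbered set by their first 4 digits, and each set holds 6 high and 6 low IMF animals. What the digits stand for is unknown from the labels. Within the earlier-numbered set the log2 fold change was positive for 69 of 79 members with a median of 0.18, against 77.2% of all genes with a median of 0.14. Within the later-numbered set it was positive for 39 of 79 with a median of -0.022, against 56.2% of all genes with a median of 0.024. The 79 are not the same genes in both sets, since SF3A2 was tested in the earlier set alone and PRPF40B in the later set alone. The difference between the sets, as an interaction term in limma, was called for 0 members and 0 genes, and 6 of 79 members had an unadjusted p below 0.05 against 3.29% of all genes. SRSF10 had the smallest p, with log2 fold changes of 0.52 in the earlier-numbered set and 0.035 in the later one (interaction -0.49, SE 0.19, unadjusted p = 0.0156, adjusted p = 0.998). For SNRPN the values were 0.0029 in the earlier-numbered set and 0.45 in the later one, and for PABPN1 they were 0.39 and 0.26 in that order.

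Splicing genes outside the name rule gave no call either. Of the core spliceosome and exon junction list 26 of 30 genes were tested, as 27 sums since CDC5L is listed at 2 loci. Of these 27 sums 22 had a positive fold change (17 after TMM scaling), with a median of 0.13 and 3 with an unadjusted p below 0.05. The background for each outside list is all genes tested, of which 73.4% were positive (49.9% after TMM scaling), with a median of 0.077. In that background 6.79% had a positive and 0.893% a negative fold change with an unadjusted p below 0.05 in limma. Calls at the adjusted threshold made up 0.051% of it. EFTUD2, the GTPase of the U5 particle, had 15.6 ± 3.72 FPKM in high IMF and 10.5 ± 6.58 FPKM in low IMF (log2 fold change 0.82, SE 0.32, adjusted p = 0.544, limma). LSM4, of the ring that binds U6, had 18.8 ± 4.29 FPKM in high IMF and 14.7 ± 3.25 FPKM in low IMF (log2 fold change 0.34, adjusted p = 0.546, limma). Of the muscle splicing regulators 12 of 16 were tested, with 6 positive (3 after TMM scaling) and a median of -0.029. QKI, which controls muscle exons, had a log2 fold change of 0.43 (adjusted p = 0.685), and MATR3, a nuclear matrix protein, one of -0.56 (adjusted p = 0.695).

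Of the other SR-like and paraspeckle proteins 15 of 17 were tested, with 8 positive (2 after TMM scaling), a median of 0.0085, and 1 with an unadjusted p below 0.05. That was LUC7L3, a U1-associated protein, with 2.03 ± 0.924 FPKM in high IMF and 3.10 ± 1.43 FPKM in low IMF (log2 fold change -0.41, adjusted p = 0.629, limma). DDX17, an RNA helicase, had a log2 fold change of 0.42 (adjusted p = 0.731). Of the SR protein kinases and phosphatases 7 of 8 were tested, with 4 positive (3 after TMM scaling) and a median of 0.048. SRPK2, a kinase of SR proteins, and PPP1CA, a phosphatase subunit, had log2 fold changes of 0.20 and 0.12, or 0.14 and 0.014 after TMM scaling.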

How the data were processed

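The authors deposited 1 table of values per transcript and animal, with length, exon number, a fold, a p-value and q-values, per the file headers. That the deposited values are FPKM was inferred from the values. The authors' fold ratio runs low over high IMF, since its sign matched the FPKM means for 328 of 328 transcripts with an authors' p-value below 0.01. HISAT2 2.0.5, StringTie 1.3.3 and the build Sscrofa11.1 are named in the submitters' processing notes. Every listed transcript is above 0 in at least 19 of 24 libraries.

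FPKM was summed per symbol and chromosome. Tests used limma 3.58.1 (R 4.3.3; Python 3.11.15 for tables) on log2(FPKM + 1), mean of at least 0.5 FPKM, mean-variance trend, robust moderation, Benjamini-Hochberg over all features, two-sided. Fold changes on this scale understate low genes. Shares used a pseudocount of 0.5 FPKM, genes of at least 1 FPKM and a mean share of at least 1%. The fits were tested on simulated data. Members, lists and settings were chosen with earlier results of these data known. Named genes are the 8 of smallest p per direction with a mean of at least 1 FPKM, the 8 of smallest p for shares, the 6 most abundant, and per family the most abundant and the one with most transcripts, plus 2 per outside list; others were chosen after their values were seen. Animals are the replicates, and a p-value sets the group difference against the spread among these animals, moderated over all features tested. High IMF animals 4 and 8, low IMF animals 2 and 8, and low IMF animals 6 and 7 share their first 9 identifier digits. Whether such animals are independent was not tested. RefSeq names come from its table for the same build.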

Additional observations from a re-analysis of the deposited data

How the results depend on the processing

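No member gene, transcript or share was called under any of the alternatives run, where the lowest adjusted p of any member was 0.102 for gene sums, 0.197 for transcripts and 0.689 for shares (limma). The alternatives were TMM and upper-quartile scaling, no filter on low values, a minimum mean of 5 FPKM, other pseudocounts, reference transcripts alone, limma without robust moderation, a term for the identifier set, a single animal for each shared start of 9 digits, leaving out the pair of animals with a low top-10 share, share settings, and each animal left out in turn. Over 44 named values these gave 1470 results, of which 1408 kept their sign and 62 did not; the cause was not tested. The members' median log2 fold change was 0.056 to 0.12 with 1 animal left out, -0.013 under TMM, -0.019 under upper-quartile scaling and 0.12 without the pair. Counts at an unadjusted p of 0.05 in limma moved more, and so did those over all genes. With 1 animal left out, 2 to 11 members were higher and 0 lower. The 2 were without high IMF animal 7, where 616 of all 11721 genes were higher and 117 lower. The 11 were without low IMF animal 10, where 1654 of 11691 genes were higher and 94 lower. With 1 animal per 9 digits 1 member was higher, against 710 of 11731 genes. Without the pair 8 members were higher, against 1328 of 11666 genes.

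Values that changed sign, under TMM and then upper-quartile scaling, were -0.11 and -0.11 for HNRNPA1L2, -0.014 and -0.022 for HNRNPA2B1, -0.022 and -0.030 for HNRNPH1, -0.0039 and -0.012 for HNRNPM, -0.053 and -0.060 for HNRNPU, -0.023 and -0.030 for RBM22, -0.075 and -0.082 for SF3A1, and -0.074 and -0.082 for SRSF2. With reference transcripts alone they were -0.17 for HNRNPA2B1, -0.031 for HNRNPH1, 0.022 for PRPF3, -0.51 for SNRPD2 and 0.24 for SRSF1. With 1 animal per 9 digits they were -0.022 for HNRNPA1L2 and -0.047 for SF3A1, and without the pair 0.015 for PRPF39 and 0.017 for SF3B1. With 1 animal left out, values spanned 0 for HNRNPA1L2 (-0.047 to 0.072), HNRNPU (-0.015 to 0.097), PRPF39 (-0.050 to 0.027), SF3A1 (-0.020 to 0.091), SF3B1 (-0.14 to 0.089) and SRSF2 (-0.027 to 0.11). RBM38 gave 0.19 to 0.32 and the PABPN1 reference transcript 1.21 to 1.55. The PABPN1 sum without 2 transcripts was chosen after seeing the data. No paired analysis was made because the labels name no pairs between the groups, and animals were numbered in accession order. The interaction was computed in 1 setting, and the outside lists as deposited and under TMM. The table gives no depth, so no limit from depth can be set.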
